A study of Mus musculus with 12 samples.

Results

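Transcripts of 33 genes of glycolysis and of the response to low oxygen were followed in mouse T helper 17 (Th17) cells treated with ILA, with GSK805 or with both. The genes came from a list of mouse symbols, and each was matched to its row among the 29522 genes of the deposited tables. All 33 passed the filter on low values, a mean of at least 1 FPKM (fragments per kilobase of transcript, scaled to library depth) in at least 1 group, and were tested with 13511 genes in all. By role, 12 genes take glucose in or act on its sugars up to their splitting, and 10 cover the later steps to lactate and its export. The other 11 are known targets of hypoxia signalling.

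Naive CD4+ T cells from the spleens of wild-type C57BL/6J mice were activated through CD3 and CD28 and grown under Th17 conditions (CytoBox Th17), and these cells, strain and medium are common to every group. The 4 groups received ILA at 200 uM, GSK805 at 0.5 uM, GSK805 and ILA combined (GSK805+ILA), or vehicle, with 3 biological replicates each. ILA was taken to mean indole-3-lactic acid, which gut bacteria make from tryptophan. GSK805 is a synthetic compound known to block Th17 differentiation. The labels name no animal for a replicate, no age and no length of treatment. The p-values therefore reflect only how far these cultures varied, which may in part be technical.

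Glycolysis turns glucose into pyruvate in a chain of enzymes, most of which exist as several isoforms encoded by different genes, and lactate dehydrogenase and the monocarboxylate transporters then carry the carbon out of the cell as lactate. Hypoxia-inducible factor 1 (HIF-1), a pair of the proteins HIF-1α and ARNT, raises the transcription of many of these enzymes, and prolyl hydroxylases that need oxygen mark HIF-1α for destruction. Activated T cells run glycolysis also when oxygen is plentiful, and Th17 cells are known to use HIF-1 while they differentiate.

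The libraries held 17.84 to 23.49 M reads as recovered from the FPKM steps, so that 1 read in 1 kilobase of transcript was worth 0.0426 to 0.0560 FPKM. All 7 markers of CD4+ and Th17 cells were above 0 in every group, and their sums ran from 585 to 634 FPKM with ILA, 420.5 to 469 with GSK805, 297 to 324 with GSK805+ILA and 1277 to 1568 with vehicle. Marker sums of other cells were low. The 5 myeloid genes summed to 10.7 to 12.3 FPKM with ILA, 6.81 to 7.59 with GSK805, 9.79 to 12.5 with GSK805+ILA and 6.77 to 8.11 with vehicle, most of it Cd68, while Lyz2, Itgam and Adgre1 averaged at most 0.283 FPKM in any group. The 4 CD8 and NK genes summed to 1.39 to 1.58 FPKM with ILA, 3.76 to 4.45 with GSK805, 1.80 to 1.96 with GSK805+ILA and 3.77 to 5.31 with vehicle, most of it Cd8b1. The 4 stromal genes summed to 10.1 to 11.4 FPKM with ILA, 3.45 to 3.61 with GSK805, 6.50 to 7.30 with GSK805+ILA and 4.13 to 4.74 with vehicle, most of it Pecam1. The 4 B cell genes summed to at most 2.84 FPKM in any library. The part of any of these in the results below was not tested. ILA replicate 2 stood apart in haemoglobin transcripts, with 18.2 FPKM of Hba-a1 and 23.3 FPKM of Hbb-bs. Its erythroid sum was 41.9 FPKM, against at most 0.1 FPKM in each of the other 11 libraries. The number of the 33 genes called in each comparison is given below with and without it.

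Promoters of 4 genes are shown because the results turn on these genes: Pfkfb4 and Gpi1 had the largest increases with ILA among the 33 on the log2(FPKM + 1) scale of the tests, and Pgk1 and Ldha act in later steps and moved in opposite directions with ILA. Each line is a RefSeq window on GRCm38.p6 from 250 bases before to 50 bases after an annotated start, 5′ to 3′ on the gene's own strand, with capitals marking ACGTG or GCGTG, the core letters of HIF-1 sites, read on either strand. The windows are chr9:108991652-108991951 on the plus strand, chr7:34230287-34230586 on the minus strand, chrX:106186850-106187149 on the plus strand and chr7:46845554-46845853 on the plus strand, of which the last is 1 of 2 windows of its gene. For Ldha the window with more matches is shown, which raises its count beside genes with 1 window. The other Ldha window held 0 ACGTG and 2 GCGTG.
Pfkfb4: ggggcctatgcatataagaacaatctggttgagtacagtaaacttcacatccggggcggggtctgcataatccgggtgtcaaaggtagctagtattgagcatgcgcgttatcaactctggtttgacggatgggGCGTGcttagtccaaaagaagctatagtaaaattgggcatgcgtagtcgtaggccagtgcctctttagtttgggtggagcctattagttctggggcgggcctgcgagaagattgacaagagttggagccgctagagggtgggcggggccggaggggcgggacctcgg
Gpi1: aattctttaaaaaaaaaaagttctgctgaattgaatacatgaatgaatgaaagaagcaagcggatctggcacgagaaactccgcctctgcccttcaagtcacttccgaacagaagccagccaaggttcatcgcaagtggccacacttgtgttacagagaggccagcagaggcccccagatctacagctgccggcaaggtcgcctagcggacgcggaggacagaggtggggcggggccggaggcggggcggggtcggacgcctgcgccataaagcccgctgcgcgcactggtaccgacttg
Pgk1: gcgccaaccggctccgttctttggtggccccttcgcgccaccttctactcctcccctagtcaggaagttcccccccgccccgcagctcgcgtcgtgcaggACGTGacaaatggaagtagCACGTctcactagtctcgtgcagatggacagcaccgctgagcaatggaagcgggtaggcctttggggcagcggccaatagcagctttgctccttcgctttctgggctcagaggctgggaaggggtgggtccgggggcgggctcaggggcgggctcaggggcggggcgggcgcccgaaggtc
Ldha: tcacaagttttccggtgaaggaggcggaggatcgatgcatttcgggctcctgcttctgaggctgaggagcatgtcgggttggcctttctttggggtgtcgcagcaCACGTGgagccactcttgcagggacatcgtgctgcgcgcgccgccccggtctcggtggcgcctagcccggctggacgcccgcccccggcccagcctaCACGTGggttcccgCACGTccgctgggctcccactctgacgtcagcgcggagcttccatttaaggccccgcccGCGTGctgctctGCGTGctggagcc
ACGTG or GCGTG occurred 7 times in the Ldha window, 2 times in the Pgk1 window, 1 time in the Pfkfb4 window and 0 times in the Gpi1 window, where a CACGTG holds overlapping ACGTG matches on both strands. RefSeq windows matched 30 of the 33 genes. ACGTG lay in a window of 22 of these 30 genes (73.3%) and of 21.8% of 27025 mouse genes, and GCGTG in 21 of the 30 (70.0%) and 35.1% of all genes. Either motif lay in 28 of the 30 genes (93.3%), against 46.7% of all genes, and per window in 37 of 46 (80.4%), against 43.8% of 32851. The list includes known hypoxia targets, so a share above that of all genes could be foreseen and is no result of these libraries. The genes compared were not matched for base composition or level. The windows of Gpi1 and Tpi1 held neither set of letters.

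With ILA, 17 of the 33 genes were higher and 10 lower than with vehicle, which is 81.8% called, against 57.9% of all genes tested (33.9% higher and 24.0% lower). With GSK805, 2 were higher and 8 lower (30.3%), against 22.8% of all genes (15.7% higher and 7.08% lower). With GSK805+ILA, 8 were higher and 16 lower (72.7%), against 52.1% (31.8% higher and 20.3% lower). The median log2 fold change of the 33 was 0.17 with ILA, -0.07 with GSK805 and -0.16 with GSK805+ILA, against 0.06, 0.05 and 0.06 over all genes tested. With the filter raised to a mean of 5 FPKM, which leaves out Pfkm and Ldhb, 8768 genes were tested. Of these, 5927 were called with ILA, 2729 with GSK805 and 5327 with GSK805+ILA. The members were then 16 higher and 10 lower with ILA, 2 and 8 with GSK805, and 6 and 17 with GSK805+ILA. The share of all genes called was thus higher than at 1 FPKM, and with GSK805 near that of the members. A call here is a Benjamini-Hochberg adjusted p under 0.05 from limma on log2(FPKM + 1), adjusted over all 13511 genes, and fold changes are on that scale, which understates changes of genes with low FPKM. By role, 8 of the 12 genes of the upper steps were higher and 3 lower with ILA, 5 and 4 of the 10 of the later steps, and 4 and 3 of the 11 hypoxia targets. With GSK805+ILA these were 5 and 3 of the upper steps, 1 and 6 of the later steps, and 2 and 7 of the hypoxia targets. Bulk RNA cannot tell fewer cells of a type from less RNA per cell.

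Groups did not overlap in 26 genes for ILA against vehicle (background 62.8% of all genes), 11 for GSK805 (38.7%) and 25 for GSK805+ILA (59.2%). Without ILA replicate 2, the ILA counts were 15 higher and 10 lower. Without it the GSK805 counts were 0 higher and 8 lower, a higher count of 0 or 1 being found without any 1 library except GSK805+ILA replicate 1, and those of GSK805+ILA stayed at 8 higher and 16 lower. Centring every library on its median gene shifted the median of all genes with ILA from 0.06 to -0.07, and the 33 genes were then 12 higher and 10 lower with ILA, 0 and 13 with GSK805, and 5 and 22 with GSK805+ILA. Over all genes that centring lowered the higher share of calls to 40.9% with ILA (58.6% as reported), 40.3% with GSK805 (68.9%) and 40.2% with GSK805+ILA (61.1%), and quantile normalization gave 46.3%, 55.9% and 47.8%.

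**Figure D1:**
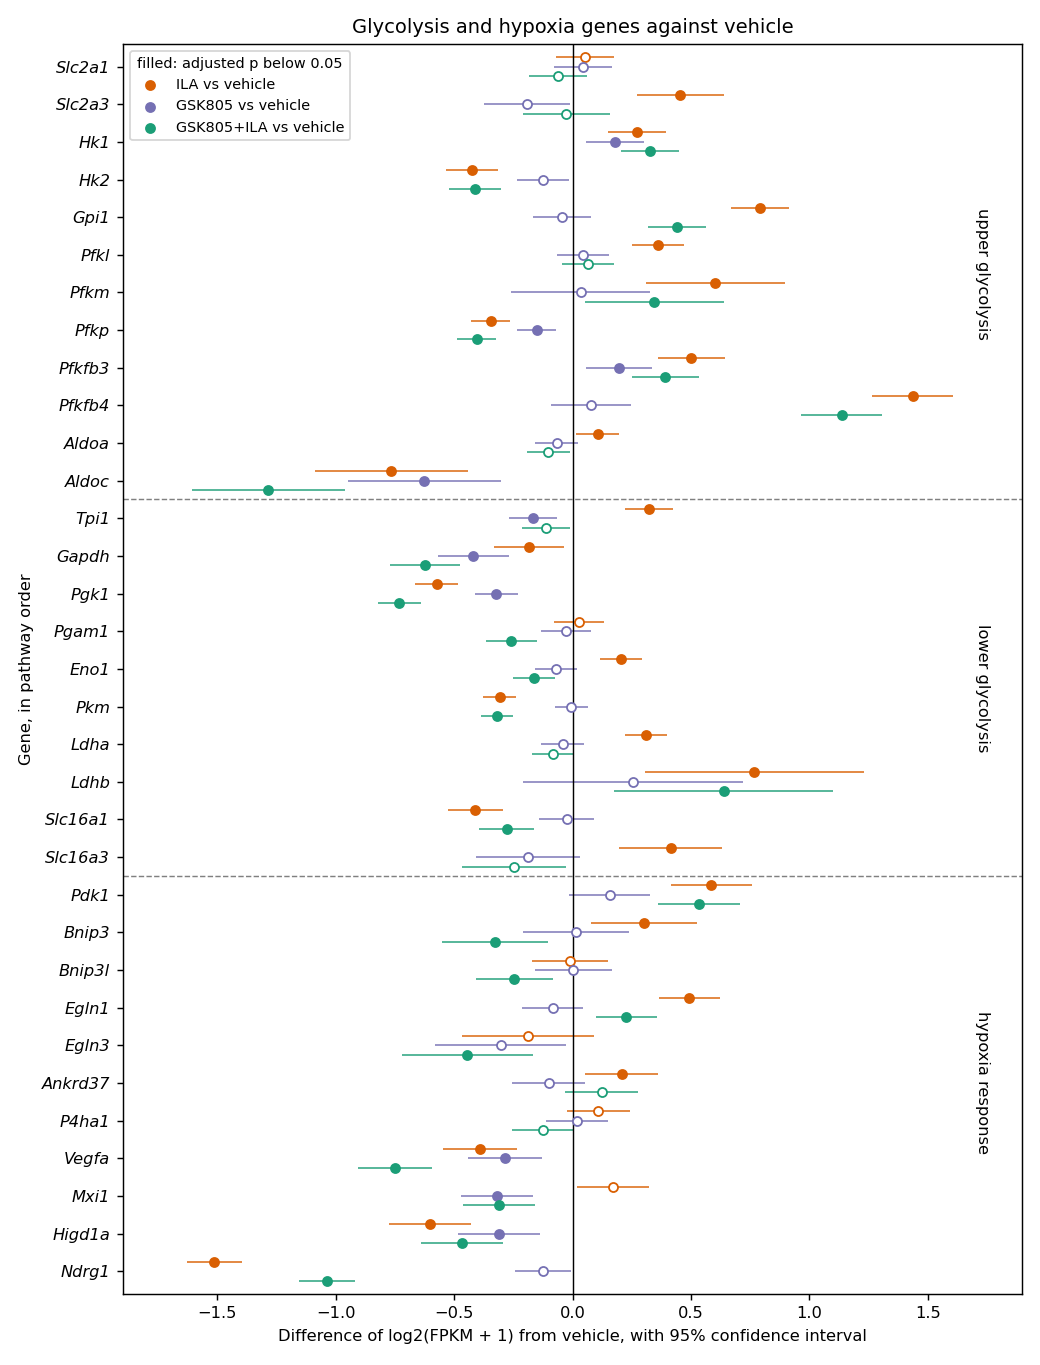
Log2 fold changes of the 33 genes against vehicle (x axis, log2 of FPKM + 1) with 95% confidence intervals, for ILA, GSK805 and GSK805+ILA, with genes down the page in pathway order and filled points where the adjusted p is under 0.05. Pfkfb4 (1.44) and Ndrg1 (-1.51) with ILA lie at the ends, and the GSK805 points run from -0.63 (Aldoc) to 0.26 (Ldhb).

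In the order of glycolysis, neighbouring steps moved in different directions with ILA. Summed over isoforms and set against vehicle, the 6-phosphofructo-2-kinases were at 2.10 times, the isomerase Gpi1 at 1.74, triose phosphate isomerase at 1.25, lactate dehydrogenases at 1.25 and enolase at 1.15, while phosphoglycerate kinase was at 0.671, pyruvate kinase at 0.806, hexokinases at 0.870, lactate transporters at 0.874 and Gapdh at 0.878 times. With GSK805+ILA the sums were 1.79 times vehicle for the 6-phosphofructo-2-kinases and 1.36 for Gpi1, and below vehicle for Pgk1 (0.600), Gapdh (0.643), pyruvate kinase (0.800) and hexokinases (0.890). With GSK805 alone most sums lay near vehicle, among them hexokinases (0.977), the isomerase (0.970), pyruvate kinase (0.996) and lactate dehydrogenases (0.974), and the lowest were Gapdh (0.744) and Pgk1 (0.798). Over the 16 enzymes from hexokinase to lactate dehydrogenase the total level was 1644 ± 17.6 FPKM with ILA, 1553 ± 31.5 with GSK805, 1391 ± 7.71 with GSK805+ILA and 1714 ± 70.1 with vehicle (SD, n = 3 each). These are 0.510% of all FPKM with ILA, 0.506% with GSK805, 0.437% with GSK805+ILA and 0.533% with vehicle.

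Glucose enters T cells through GLUT1, encoded by Slc2a1, and GLUT3, encoded by Slc2a3. Slc2a1 read 38.4, 40.3 and 39.7 FPKM with ILA and 40.2, 41.2 and 36.4 with GSK805. It read 38.1, 34.5 and 36.5 with GSK805+ILA and 38.7, 39.4 and 35.9 with vehicle. All 3 treated groups overlapped vehicle, and neither ILA (log2 fold change 0.05, 95% confidence interval -0.07 to 0.18, adjusted p = 0.431) nor GSK805+ILA (log2 fold change -0.06, 95% confidence interval -0.18 to 0.06, adjusted p = 0.369) passed the test against vehicle. Slc2a3 read 8.44, 8.44 and 8.49 FPKM with ILA and 5.56, 4.90 and 4.66 with GSK805. It read 6.03, 5.85 and 5.45 with GSK805+ILA and 5.06, 6.17 and 6.54 with vehicle. All 3 ILA libraries lay above every other library, and Slc2a3 was 1.37-fold higher with ILA than with vehicle (log2 fold change 0.46, SE 0.08, adjusted p = 0.00061), while with GSK805+ILA it did not pass (log2 fold change -0.03, 95% confidence interval -0.21 to 0.16, adjusted p = 0.815). The ratio of Slc2a1 to Slc2a3 was 4.67 ± 0.113 with ILA, 7.82 ± 0.590 with GSK805, 6.31 ± 0.402 with GSK805+ILA and 6.51 ± 1.08 with vehicle (SD, n = 3 each), and ILA did not overlap vehicle.

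Hexokinases trap glucose in the cell as glucose 6-phosphate, and Hk2 is the isoform known to be induced by HIF-1 and growth signals. Hk2 read 23.4, 24.5 and 23.5 FPKM with ILA and 28.2, 29.2 and 31.4 with GSK805. It read 23.0, 23.6 and 25.7 with GSK805+ILA and 33.2, 32.0 and 31.8 with vehicle. All ILA and GSK805+ILA libraries lay below all vehicle libraries, at 1.34-fold lower with ILA (log2 fold change -0.43, SE 0.05, adjusted p = 2.3e-05). With GSK805+ILA the gene was 1.33-fold lower (log2 fold change -0.41, SE 0.05, adjusted p = 4e-05). Hk1, the broadly expressed isoform, read 15.3, 14.6 and 14.9 FPKM with ILA and 14.7, 14.1 and 13.0 with GSK805. It read 16.2, 15.1 and 15.4 with GSK805+ILA and 12.6, 12.7 and 11.4 with vehicle. It went the other way, with no overlap with vehicle, and was 1.21-fold higher with ILA (log2 fold change 0.27, SE 0.06, adjusted p = 0.0014). With GSK805+ILA it was 1.25-fold higher (log2 fold change 0.33, SE 0.06, adjusted p = 0.00047). Hk1 was also called with GSK805 (log2 fold change 0.18, SE 0.06, adjusted p = 0.0405). This Hk1 call was lost with neither trend nor robust moderation (0.051), quantile normalization (0.165), median centring (0.224), no filter (0.0933), the compared groups alone (0.106) or without any 1 of the 12 libraries except GSK805 replicate 3, GSK805+ILA replicate 1, vehicle replicate 1 and vehicle replicate 2 (0.0503 to 0.147); its range over all alternatives was 0.0077 to 0.224. The Hk1 to Hk2 ratio was accordingly 0.627 ± 0.0296 with ILA, 0.473 ± 0.0542 with GSK805, 0.647 ± 0.0508 with GSK805+ILA and 0.378 ± 0.0202 with vehicle (SD, n = 3 each). The Hk1 call with ILA was lost with median centring (0.0504); its range over all alternatives was 2.02e-05 to 0.0504.

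Gpi1, the enzyme that turns glucose 6-phosphate into fructose 6-phosphate (ENSMUSG00000036427, chromosome 7, 34201330 to 34230336), had the second largest increase with ILA of the 33 genes on the log2(FPKM + 1) scale. It read 86.2, 86.4 and 85.3 FPKM with ILA and 51.3, 47.6 and 44.6 with GSK805. It read 66.4, 70.2 and 65.2 with GSK805+ILA and 47.7, 53.0 and 47.2 with vehicle. ILA libraries were the highest, GSK805+ILA libraries came next without overlap, and GSK805 and vehicle overlapped. Gpi1 was 1.73-fold higher with ILA (log2 fold change 0.79, SE 0.06, adjusted p = 3.7e-07) and 1.36-fold higher with GSK805+ILA (log2 fold change 0.44, SE 0.06, adjusted p = 5.3e-05). It was not called with GSK805 (log2 fold change -0.04, 95% confidence interval -0.17 to 0.08, adjusted p = 0.626). Its promoter line above carries no capitals. The 4 genes that share a near-identical stretch with Gpi1, Wdr33 among them, held 31.3% as many reads, so its level is uncertain where reads were shared.

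Phosphofructokinase commits the sugar to glycolysis and is built from liver (Pfkl), muscle (Pfkm) and platelet (Pfkp) type subunits. Pfkp, the most abundant here, read 38.2, 39.7 and 39.9 FPKM with ILA and 45.2, 45.4 and 44.5 with GSK805. It read 38.5, 37.9 and 36.6 with GSK805+ILA and 52.3, 50.0 and 48.1 with vehicle. Vehicle libraries were the highest, and Pfkp was 1.27-fold lower with ILA (log2 fold change -0.35, SE 0.04, adjusted p = 1.1e-05) and 1.11-fold lower with GSK805 (log2 fold change -0.15, SE 0.04, adjusted p = 0.0147). With GSK805+ILA Pfkp was 1.32-fold lower (log2 fold change -0.40, SE 0.04, adjusted p = 4.6e-06). Pfkl read 28.5, 29.2 and 28.6 FPKM with ILA and 23.9, 22.1 and 22.8 with GSK805. It read 22.4, 23.2 and 24.3 with GSK805+ILA and 23.2, 22.8 and 20.6 with vehicle. Only ILA stood clear of the others, 1.28-fold higher than vehicle (log2 fold change 0.36, SE 0.05, adjusted p = 7.8e-05). With GSK805+ILA it did not pass (log2 fold change 0.07, 95% confidence interval -0.04 to 0.18, adjusted p = 0.289). The Pfkl to Pfkp ratio was 0.734 ± 0.0156 with ILA, 0.509 ± 0.0210 with GSK805, 0.619 ± 0.0413 with GSK805+ILA and 0.442 ± 0.0136 with vehicle (SD, n = 3 each), with each treated group clear of vehicle. Pfkm, the scarcest subunit at 103 to 113 reads in the vehicle libraries, averaged 2.90 ± 0.649 FPKM with ILA, 1.62 ± 0.346 with GSK805, 2.24 ± 0.319 with GSK805+ILA and 1.55 ± 0.135 with vehicle (SD, n = 3 each). It was 1.52-fold higher with ILA (log2 fold change 0.60, SE 0.13, adjusted p = 0.00238) and called with GSK805+ILA (log2 fold change 0.34, SE 0.13, adjusted p = 0.0491). The Pfkm call with GSK805+ILA was lost with quantile normalization (0.262), median centring (0.223), no filter (0.107), the replicate block (0.0552) or without any 1 of the 12 libraries except ILA replicate 2, ILA replicate 3, GSK805 replicate 2, GSK805 replicate 3 and GSK805+ILA replicate 1 (0.0559 to 0.147); its range over all alternatives was 0.0155 to 0.262. Genes that overlap Pfkm, chiefly Senp1, held 1372% of its reads, and Senp1 itself did not pass with ILA (log2 fold change 0.11, adjusted p = 0.111).

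The bifunctional enzymes of Pfkfb3 and Pfkfb4 make and break fructose 2,6-bisphosphate, the activator of phosphofructokinase, and both genes are known to respond to hypoxia. Pfkfb4 (ENSMUSG00000025648, chromosome 9, 108991778 to 109032228) read 10.1, 9.99 and 9.94 FPKM with ILA and 3.34, 3.41 and 3.14 with GSK805. It read 8.23, 7.93 and 7.68 with GSK805+ILA and 2.85, 3.68 and 2.75 with vehicle. The ILA and GSK805+ILA libraries formed separate groups far above the overlapping GSK805 and vehicle libraries. Pfkfb4 was 2.71-fold higher with ILA (log2 fold change 1.44, SE 0.08, adjusted p = 4.7e-08), the largest increase among the 33 genes. It was 2.20-fold higher with GSK805+ILA (log2 fold change 1.14, SE 0.08, adjusted p = 3.8e-07) and not called with GSK805 (log2 fold change 0.08, 95% confidence interval -0.09 to 0.25, adjusted p = 0.52). Pfkfb3 read 9.0, 8.46 and 8.44 FPKM with ILA and 6.72, 6.95 and 6.71 with GSK805. It read 8.65, 7.89 and 7.26 with GSK805+ILA and 5.88, 5.40 and 6.12 with vehicle. All treated libraries exceeded all vehicle libraries. Pfkfb3 was 1.42-fold higher with ILA (log2 fold change 0.50, SE 0.06, adjusted p = 4.2e-05) and 1.31-fold higher with GSK805+ILA (log2 fold change 0.39, SE 0.06, adjusted p = 0.00034). Its difference with GSK805 was smaller (log2 fold change 0.20, SE 0.06, adjusted p = 0.0471). The Pfkfb3 call with GSK805 was lost with quantile normalization (0.264), median centring (0.206), no filter (0.106), the replicate block (0.0539), the compared groups alone (0.075) or without any 1 of the 12 libraries except GSK805+ILA replicate 1 and GSK805+ILA replicate 3 (0.0535 to 0.154); its range over all alternatives was 0.0163 to 0.264. Pfkfb3 exceeded Pfkfb4 with GSK805 and vehicle but not with ILA, at a ratio of 0.861 ± 0.0236 with ILA, 2.06 ± 0.0634 with GSK805, 0.997 ± 0.0531 with GSK805+ILA and 1.92 ± 0.401 with vehicle (SD, n = 3 each).

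Aldolase splits fructose 1,6-bisphosphate into trioses, and nearly all of its transcript here was Aldoa. Aldoa averaged 343 ± 6.61 FPKM with ILA, 304 ± 6.56 with GSK805, 297 ± 6.50 with GSK805+ILA and 319 ± 18.5 with vehicle (SD, n = 3 each). ILA and vehicle overlapped, and Aldoa was called with ILA by a small margin (log2 fold change 0.11, SE 0.04, adjusted p = 0.0441). The Aldoa call was lost with neither trend nor robust moderation (0.0823), median centring (0.603), no filter (0.0795), the replicate block (0.0554), the compared groups alone (0.105) or without any 1 of the 12 libraries except GSK805+ILA replicate 1 and vehicle replicate 2 (0.0504 to 0.159); its range over all alternatives was 0.00193 to 0.603. With median centring its sign changed, to -0.03. Aldoc, the isoform known from brain, read 3.46, 3.42 and 2.52 FPKM with ILA and 3.90, 3.92 and 2.84 with GSK805. It read 1.83, 1.69 and 2.10 with GSK805+ILA and 4.70, 6.42 and 7.07 with vehicle. Every treated library lay below every vehicle library, at 1.70-fold lower with ILA (log2 fold change -0.77, SE 0.15, adjusted p = 0.0009). Aldoc was 1.54-fold lower with GSK805 (log2 fold change -0.63, SE 0.15, adjusted p = 0.011) and 2.44-fold lower with GSK805+ILA (log2 fold change -1.28, SE 0.15, adjusted p = 2.4e-05). The Aldoa to Aldoc ratio was 112 ± 23.2 with ILA, 87.2 ± 14.8 with GSK805, 159.8 ± 18.3 with GSK805+ILA and 53.9 ± 9.89 with vehicle (SD, n = 3 each).

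**Figure D2:**
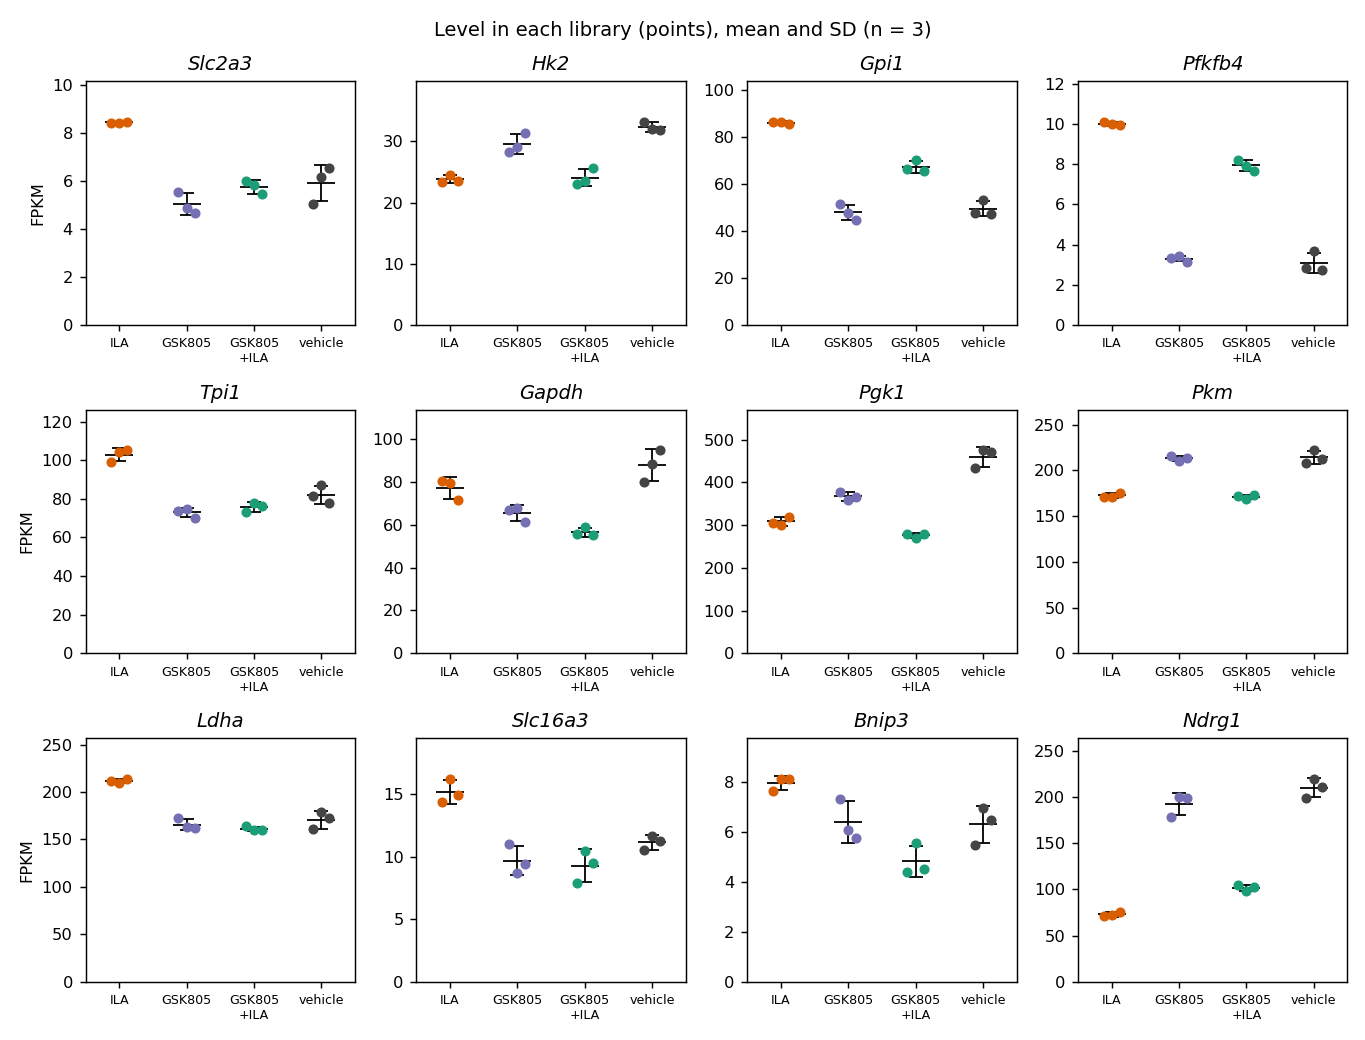
FPKM (y axis, from 0) of 12 of the genes in each library, with groups in the order ILA, GSK805, GSK805+ILA and vehicle along the x axis, a point for each of the 3 replicates and a line at the mean with SD. Pfkfb4 and Gpi1 are highest with ILA and next highest with GSK805+ILA, Pgk1 and Ndrg1 are highest with vehicle, and Ldha and Slc16a3 are high with ILA only.

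Triose phosphate isomerase, glyceraldehyde 3-phosphate dehydrogenase and phosphoglycerate kinase act in a row, and their genes did not move together. Tpi1 read 99.1, 104 and 105 FPKM with ILA and 73.8, 74.8 and 70.3 with GSK805. It read 73.2, 77.8 and 76.6 with GSK805+ILA and 81.4, 87.2 and 77.8 with vehicle. ILA libraries were the highest, 1.25-fold higher than vehicle (log2 fold change 0.32, SE 0.05, adjusted p = 0.00011), and GSK805 libraries the lowest of the single treatments (log2 fold change -0.17, SE 0.05, adjusted p = 0.0249). The Tpi1 call with GSK805 was lost with quantile normalization (0.0679), no filter (0.0598), the compared groups alone (0.0639), without vehicle replicate 2 (0.0853), GSK805 replicate 1 (0.0534) or GSK805 replicate 3 (0.0855); its range over all alternatives was 0.00511 to 0.0855.

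Gapdh read 80.6, 79.4 and 71.5 FPKM with ILA and 66.9, 68.0 and 61.2 with GSK805. It read 55.5, 58.9 and 55.0 with GSK805+ILA and 80.1, 88.6 and 94.9 with vehicle. It was lower with GSK805 (log2 fold change -0.42, SE 0.07, adjusted p = 0.00139) and GSK805+ILA (log2 fold change -0.62, SE 0.07, adjusted p = 1.5e-05) without overlap with vehicle, while ILA overlapped vehicle by the values 80.6 and 80.1 FPKM (log2 fold change -0.18, SE 0.07, adjusted p = 0.0362). The Gapdh call with ILA was lost with neither trend nor robust moderation (0.0543), quantile normalization (0.158), no filter (0.0838), the compared groups alone (0.0698), without vehicle replicate 2 (0.0852), vehicle replicate 3 (0.145) or ILA replicate 3 (0.14); its range over all alternatives was 0.00203 to 0.158. Near-identical copies, 70 of them, held 13.9% as many reads as Gapdh, so its level is uncertain where reads were shared. Iffo1, which overlaps Gapdh on the opposite strand, held 11.8% as many reads and was higher with ILA (log2 fold change 0.94, adjusted p = 2.6e-07).

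Pgk1 (ENSMUSG00000062070, chromosome X, 106187100 to 106203699), the step that yields the first ATP, was the most abundant of the 33 genes with vehicle and read 305, 301 and 319.7 FPKM with ILA and 377, 358 and 366 with GSK805. It read 279.7, 270.1 and 278 with GSK805+ILA and 433, 475 and 471 with vehicle. The 4 groups did not overlap, with GSK805+ILA lowest, then ILA, GSK805 and vehicle. Pgk1 was 1.49-fold lower with ILA (log2 fold change -0.57, SE 0.04, adjusted p = 4.3e-07) and 1.25-fold lower with GSK805 (log2 fold change -0.32, SE 0.04, adjusted p = 0.00037). With GSK805+ILA Pgk1 was 1.66-fold lower (log2 fold change -0.73, SE 0.04, adjusted p = 9.1e-08). Pgk1 thus fell in all 3 comparisons, beside a promoter window with 2 ACGTG matches.

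Phosphoglycerate mutase (Pgam1) and enolase (Eno1) carry the carbon to phosphoenolpyruvate. Pgam1 read 86.6, 92.6 and 88.8 FPKM with ILA and 87.5, 89.3 and 81.3 with GSK805. It read 70.5, 71.1 and 78.2 with GSK805+ILA and 87.8, 89.2 and 86.1 with vehicle. All GSK805+ILA libraries lay below all vehicle libraries, at 1.20-fold lower (log2 fold change -0.26, SE 0.05, adjusted p = 0.00092), and the other groups overlapped vehicle. ILA did not pass (log2 fold change 0.03, 95% confidence interval -0.08 to 0.13, adjusted p = 0.672). Eno1 read 134, 135 and 137 FPKM with ILA and 115, 109.5 and 110.4 with GSK805. It read 108, 105 and 101 with GSK805+ILA and 113, 123 and 116 with vehicle. It was 1.15-fold higher with ILA (log2 fold change 0.21, SE 0.04, adjusted p = 0.00097) and 1.12-fold lower with GSK805+ILA (log2 fold change -0.16, SE 0.04, adjusted p = 0.00505). The 2 groups given ILA thus lay on opposite sides of vehicle. The Eno1 call with ILA was lost with median centring (0.188); its range over all alternatives was 1.39e-05 to 0.188. With GSK805+ILA the Eno1 call was lost with quantile normalization (0.0774); its range over all alternatives was 0.000136 to 0.0774.

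Pyruvate kinase, encoded by Pkm, makes pyruvate and the second ATP. Pkm read 171, 171 and 176 FPKM with ILA and 216, 210.1 and 214 with GSK805. It read 172, 169 and 173 with GSK805+ILA and 208, 222 and 212 with vehicle. The ILA and GSK805+ILA libraries lay together below the GSK805 and vehicle libraries, at 1.24-fold lower (log2 fold change -0.31, SE 0.03, adjusted p = 6.7e-06) and 1.25-fold lower (log2 fold change -0.32, SE 0.03, adjusted p = 6.8e-06). GSK805 alone did not pass (95% confidence interval of the log2 fold change -0.07 to 0.06, adjusted p = 0.93).

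Lactate dehydrogenase A reduces pyruvate to lactate and is a classic HIF-1 target. Ldha read 212, 209.6 and 214 FPKM with ILA and 172, 163 and 162 with GSK805. It read 164, 159.5 and 160.4 with GSK805+ILA and 161, 179 and 172 with vehicle. ILA alone stood above the rest, 1.24-fold higher than vehicle (log2 fold change 0.31, SE 0.04, adjusted p = 5.3e-05), and GSK805+ILA did not pass (log2 fold change -0.08, 95% confidence interval -0.17 to 0.01, adjusted p = 0.115). Ldhb, the isoform that favours the reverse reaction, was scarce, at 58 to 99 reads in the vehicle libraries, and averaged 4.41 ± 1.04 FPKM with ILA, 2.77 ± 0.593 with GSK805, 3.98 ± 1.28 with GSK805+ILA and 2.17 ± 0.589 with vehicle (SD, n = 3 each). It was 1.70-fold higher with ILA (log2 fold change 0.77, SE 0.21, adjusted p = 0.00871) and called with GSK805+ILA (log2 fold change 0.64, SE 0.21, adjusted p = 0.0251). The Ldhb call with GSK805+ILA was lost with quantile normalization (0.0749), median centring (0.0604), no filter (0.0634), without vehicle replicate 2 (0.0786), vehicle replicate 3 (0.0842) or GSK805+ILA replicate 2 (0.0996); its range over all alternatives was 0.00463 to 0.0996. The Ldha to Ldhb ratio was 50.3 ± 14.2 with ILA, 61.7 ± 13.6 with GSK805, 43.2 ± 12.6 with GSK805+ILA and 83.0 ± 22.9 with vehicle (SD, n = 3 each), and ILA overlapped vehicle.

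Lactate leaves through the monocarboxylate transporters MCT1 (Slc16a1) and MCT4 (Slc16a3), of which MCT4 is the form known from glycolytic, exporting cells. Slc16a3 read 14.3, 16.2 and 15.0 FPKM with ILA and 11.0, 8.68 and 9.37 with GSK805. It read 7.86, 10.5 and 9.48 with GSK805+ILA and 10.5, 11.7 and 11.2 with vehicle. ILA alone was above vehicle, 1.33-fold higher (log2 fold change 0.41, SE 0.10, adjusted p = 0.00395), and GSK805+ILA did not pass (log2 fold change -0.25, 95% confidence interval -0.47 to -0.03, adjusted p = 0.0562). Slc16a3 did pass as lower with GSK805+ILA under 6 alternatives, among them quantile normalization (0.012), median centring (0.00744) and voom on recovered reads (0.0123). Slc16a1 read 30.2, 33.6 and 31.9 FPKM with ILA and 41.0, 41.7 and 43.2 with GSK805. It read 35.8, 32.8 and 36.6 with GSK805+ILA and 44.2, 40.7 and 43.4 with vehicle. It went down, 1.33-fold lower with ILA (log2 fold change -0.41, SE 0.05, adjusted p = 4.3e-05) and 1.21-fold lower with GSK805+ILA (log2 fold change -0.28, SE 0.05, adjusted p = 0.00096). The Slc16a1 to Slc16a3 ratio was therefore lowest with ILA, 2.10 ± 0.0304 with ILA, 4.38 ± 0.575 with GSK805, 3.85 ± 0.710 with GSK805+ILA and 3.85 ± 0.358 with vehicle (SD, n = 3 each).

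Isoform ratios were compared with vehicle by exact two-sided permutation tests in 27 comparisons over 9 pairs, in which 3 libraries against 3 cannot reach a p below 0.1 (adjusted p = 0.159 at best). Groups did not overlap for 8 of 9 pairs with ILA, all but Ldha to Ldhb, for 3 with GSK805 and for 6 with GSK805+ILA. Of all single genes, 62.8%, 38.7% and 59.2% did not overlap vehicle in these comparisons. No such share was computed for ratios of gene pairs, so the counts only describe these pairs. On the log2 scale the Hk1 to Hk2 ratio moved by 0.73 with ILA, 0.32 with GSK805 and 0.78 with GSK805+ILA, and the Pfkfb3 to Pfkfb4 ratio by -1.14, 0.12 and -0.92. The Aldoa to Aldoc ratio moved by 1.05 with ILA, 0.70 with GSK805 and 1.58 with GSK805+ILA, and the last was 1.18 when log2(FPKM + 1) was used for both isoforms.

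**Figure D3:**
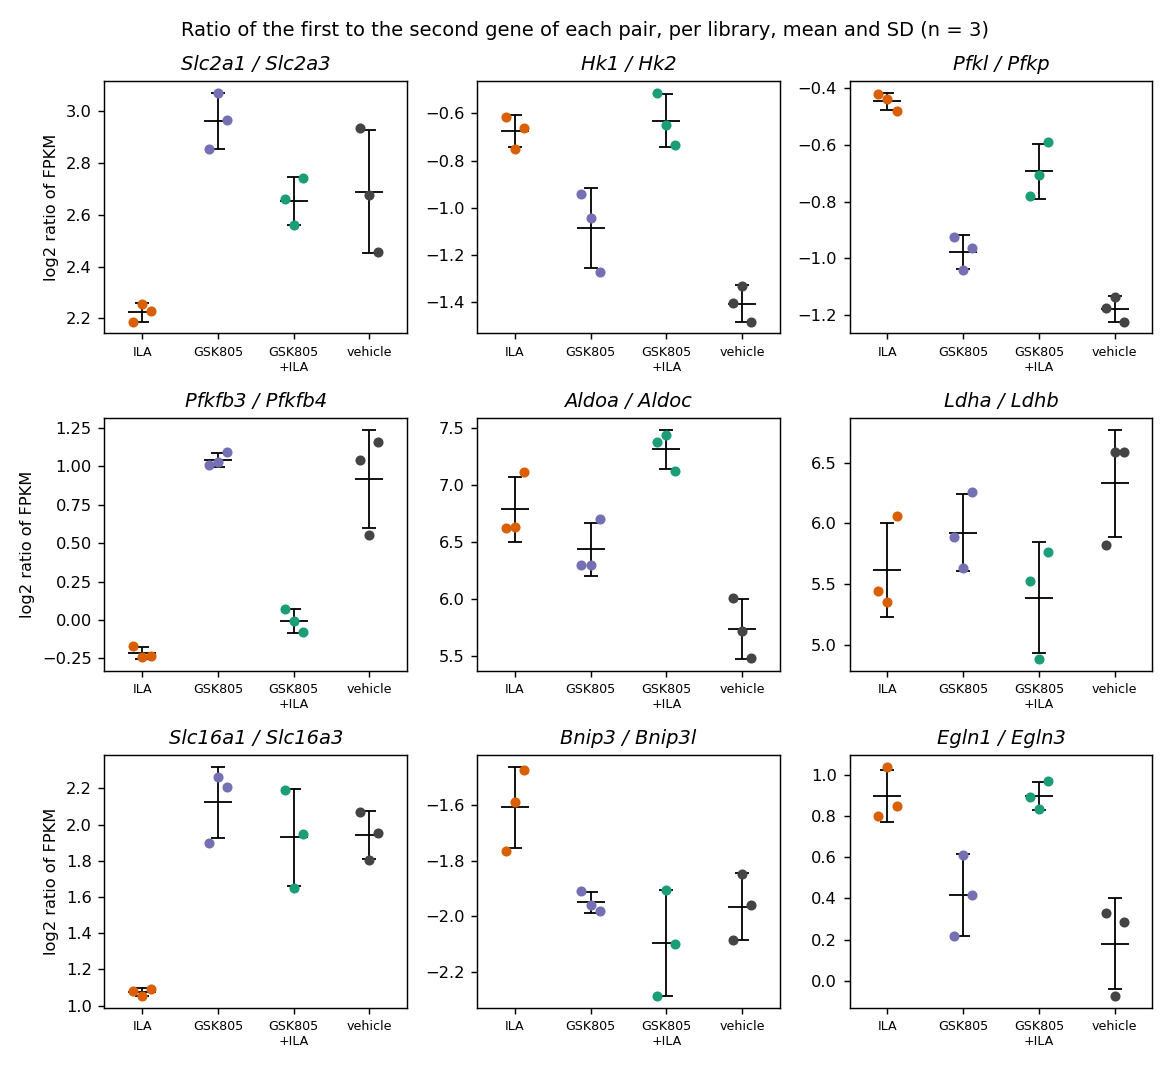
Log2 ratio of the FPKM of 9 isoform pairs (y axis) in each of the 12 libraries, with groups in the order ILA, GSK805, GSK805+ILA and vehicle along the x axis. The Hk1 to Hk2, Pfkl to Pfkp and Egln1 to Egln3 ratios lie higher with ILA than with vehicle, and Pfkfb3 to Pfkfb4 and Slc16a1 to Slc16a3 lie lower.

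Pyruvate dehydrogenase kinase 1 (Pdk1) holds pyruvate back from the mitochondria and is a HIF-1 target. Pdk1 read 6.13, 6.77 and 6.74 FPKM with ILA and 5.08, 4.59 and 4.16 with GSK805. It read 6.06, 6.86 and 5.90 with GSK805+ILA and 4.34, 3.78 and 3.96 with vehicle. The ILA and GSK805+ILA libraries lay above all GSK805 and vehicle libraries, 1.50-fold higher (log2 fold change 0.59, SE 0.08, adjusted p = 6.2e-05) and 1.45-fold higher (log2 fold change 0.53, SE 0.08, adjusted p = 0.00016). GSK805 alone did not pass (log2 fold change 0.16, 95% confidence interval -0.02 to 0.33, adjusted p = 0.185).

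The prolyl hydroxylases PHD2 (Egln1) and PHD3 (Egln3) mark HIF-1α for degradation and are themselves HIF-1 targets. Egln1 read 24.4, 26.5 and 24.2 FPKM with ILA and 16.9, 16.6 and 15.7 with GSK805. It read 21.1, 20.5 and 20.3 with GSK805+ILA and 16.0, 17.8 and 18.7 with vehicle. ILA libraries were the highest and GSK805+ILA libraries the next, 1.41-fold higher (log2 fold change 0.49, SE 0.06, adjusted p = 2.3e-05) and 1.17-fold higher (log2 fold change 0.23, SE 0.06, adjusted p = 0.00655) than vehicle. The Egln1 call with GSK805+ILA was lost with median centring (0.227); its range over all alternatives was 0.00142 to 0.227. Egln3 read 14.0, 12.9 and 13.4 FPKM with ILA and 14.6, 10.9 and 11.7 with GSK805. It read 11.4, 11.5 and 10.3 with GSK805+ILA and 12.7, 18.7 and 15.4 with vehicle. Vehicle libraries spread from 12.7 to 18.7 FPKM, and only GSK805+ILA passed (log2 fold change -0.45, SE 0.13, adjusted p = 0.0116). ILA did not pass for Egln3 (log2 fold change -0.19, 95% confidence interval -0.47 to 0.09, adjusted p = 0.223). The Egln1 to Egln3 ratio was 1.87 ± 0.167 with ILA, 1.34 ± 0.184 with GSK805, 1.86 ± 0.0888 with GSK805+ILA and 1.14 ± 0.167 with vehicle (SD, n = 3 each).

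Bnip3 and Bnip3l, mitophagy receptors of the outer mitochondrial membrane, differed from each other. Bnip3 read 7.66, 8.12 and 8.14 FPKM with ILA and 7.33, 6.10 and 5.76 with GSK805. It read 4.41, 5.55 and 4.51 with GSK805+ILA and 5.50, 6.95 and 6.49 with vehicle. It was 1.23-fold higher with ILA (log2 fold change 0.30, SE 0.10, adjusted p = 0.0251) and 1.26-fold lower with GSK805+ILA (log2 fold change -0.33, SE 0.10, adjusted p = 0.018), where GSK805+ILA overlapped vehicle by the values 5.55 and 5.50 FPKM. The Bnip3 call with ILA was lost with quantile normalization (0.187), median centring (0.199), no filter (0.0618), without vehicle replicate 1 (0.101), ILA replicate 2 (0.0645) or ILA replicate 3 (0.0646); its range over all alternatives was 0.0132 to 0.199. With GSK805+ILA the Bnip3 call was lost without vehicle replicate 2 (0.072), vehicle replicate 3 (0.0547), GSK805+ILA replicate 1 (0.0674) or GSK805+ILA replicate 3 (0.0616); its range over all alternatives was 0.00172 to 0.072. Bnip3l averaged 24.3 ± 1.71 FPKM with ILA, 24.7 ± 2.52 with GSK805, 20.5 ± 1.10 with GSK805+ILA and 24.5 ± 1.04 with vehicle (SD, n = 3 each) and was called with GSK805+ILA (log2 fold change -0.25, SE 0.07, adjusted p = 0.0151). The Bnip3l call was lost without vehicle replicate 3 (0.0509) or GSK805+ILA replicate 3 (0.0598); its range over all alternatives was 0.00095 to 0.0598.

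Ndrg1 (ENSMUSG00000005125, chromosome 15, 66929318 to 66969640), a stress-induced gene known as a marker of hypoxia in tumours, had the largest change with ILA of all 33 on the log2(FPKM + 1) scale. Ndrg1 read 70.8, 72.1 and 75.9 FPKM with ILA and 178, 199.9 and 199 with GSK805. It read 104, 97.9 and 103 with GSK805+ILA and 199, 220.1 and 211 with vehicle. ILA libraries were the lowest, GSK805+ILA libraries lay between without overlap, and GSK805 overlapped vehicle. It was 2.85-fold lower with ILA (log2 fold change -1.51, SE 0.05, adjusted p = 2.9e-09) and 2.05-fold lower with GSK805+ILA (log2 fold change -1.04, SE 0.05, adjusted p = 4.9e-08). It was not called with GSK805 (log2 fold change -0.13, 95% confidence interval -0.24 to -0.01, adjusted p = 0.118). Gm17035, on the opposite strand over Ndrg1, had mean levels of 288 FPKM with ILA, 780.2 with GSK805, 405 with GSK805+ILA and 861 with vehicle and a log2 fold change of -1.58 with ILA. The sources used here do not say whether counting used strand, so reads of the 2 genes cannot be told apart.

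Vegfa, the angiogenic growth factor, and Higd1a, a small mitochondrial protein induced by hypoxia, were also lower. Vegfa read 38.1, 42.4 and 42.0 FPKM with ILA and 39.3, 49.0 and 44.3 with GSK805. It read 30.7, 31.9 and 32.4 with GSK805+ILA and 53.4, 51.9 and 56.5 with vehicle. Every treated library lay below every vehicle library, at 1.31-fold lower with ILA (log2 fold change -0.39, SE 0.07, adjusted p = 0.00058). Vegfa was 1.22-fold lower with GSK805 (log2 fold change -0.29, SE 0.07, adjusted p = 0.0148) and 1.68-fold lower with GSK805+ILA (log2 fold change -0.75, SE 0.07, adjusted p = 5.4e-06). The Vegfa call with GSK805 was lost without vehicle replicate 3 (0.0597); its range over all alternatives was 0.000163 to 0.0597. Higd1a read 9.97, 8.95 and 9.68 FPKM with ILA and 11.7, 11.2 and 12.7 with GSK805. It read 10.6, 10.2 and 10.9 with GSK805+ILA and 13.1, 16.8 and 15.2 with vehicle. It was 1.52-fold lower with ILA (log2 fold change -0.60, SE 0.08, adjusted p = 5.5e-05), with no treated library in the range of vehicle. Higd1a was 1.24-fold lower with GSK805 (log2 fold change -0.31, SE 0.08, adjusted p = 0.0164) and 1.38-fold lower with GSK805+ILA (log2 fold change -0.47, SE 0.08, adjusted p = 0.00045). The Higd1a call with GSK805 was lost with the compared groups alone (0.0556), without vehicle replicate 2 (0.0587), vehicle replicate 3 (0.0544), GSK805 replicate 1 (0.0528) or GSK805 replicate 2 (0.0598); its range over all alternatives was 0.00154 to 0.0598.

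Of the remaining hypoxia targets, Mxi1, an antagonist of MYC, read 9.31, 9.54 and 10.2 FPKM with ILA and 6.31, 6.93 and 6.56 with GSK805. It read 6.27, 6.91 and 6.79 with GSK805+ILA and 7.56, 9.16 and 8.82 with vehicle. It was lower with GSK805 (log2 fold change -0.32, SE 0.07, adjusted p = 0.00721) and GSK805+ILA (log2 fold change -0.31, SE 0.07, adjusted p = 0.00291) without overlap with vehicle, while ILA did not pass (log2 fold change 0.17, 95% confidence interval 0.02 to 0.32, adjusted p = 0.0549). Ankrd37 averaged 11.3 ± 0.535 FPKM with ILA, 8.98 ± 0.725 with GSK805, 10.6 ± 0.502 with GSK805+ILA and 9.70 ± 0.801 with vehicle (SD, n = 3 each). It was called with ILA (log2 fold change 0.21, SE 0.07, adjusted p = 0.025). The Ankrd37 call was lost with quantile normalization (0.192), median centring (0.386), no filter (0.0582), by voom on recovered reads (0.0777), without vehicle replicate 2 (0.101) or ILA replicate 1 (0.0893); its range over all alternatives was 0.0176 to 0.386. Genes that overlap Ankrd37 held 199% of its reads. For Bnip3 that share was 33.1%, for Pfkp 20.5%, for Aldoa 19.2% and for Mxi1 18.4%, and their levels are uncertain to that extent where reads were shared. Among these neighbours, Fam57b over Aldoa was higher with ILA (log2 fold change 0.21, adjusted p = 0.00074). Pitrm1 over Pfkp was lower with ILA (-0.27, adjusted p = 0.00021) and higher with GSK805 (0.24, adjusted p = 0.00242). Gm45507 over Bnip3 was lower with GSK805+ILA (-0.84, adjusted p = 0.0303) and did not pass with ILA (-0.14, adjusted p = 0.689). The part of shared reads in these changes was not tested. P4ha1, a collagen prolyl hydroxylase subunit, averaged 24.6 ± 1.14 FPKM with ILA, 23.0 ± 1.38 with GSK805, 20.7 ± 0.550 with GSK805+ILA and 22.7 ± 1.74 with vehicle (SD, n = 3 each) and passed in no comparison with vehicle in the main fit. P4ha1 did pass with ILA without vehicle replicate 2 (0.0453). With GSK805+ILA it passed with median centring (0.00463) or without vehicle replicate 1 (0.0278).

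The effect of ILA in the presence of GSK805 was read from GSK805+ILA against GSK805, which shares no library with ILA against vehicle. There 6 of the 33 genes were higher and 12 lower (54.5%), against 39.5% of all genes (22.0% higher and 17.5% lower), with a median log2 fold change of -0.09 and 0.02 over all genes. Without ILA replicate 2 these counts stayed at 6 and 12. With the filter at 5 FPKM, 4365 of 8768 genes were called, and of the members 7 were higher and 12 lower. In both comparisons Gpi1, Pfkfb3, Pfkfb4, Pdk1, Egln1 and Ankrd37 were higher, which is 6 of 17 higher with ILA alone and all 6 higher in the presence of GSK805. Lower in both were Hk2, Pfkp, Aldoc, Gapdh, Pgk1, Pkm, Slc16a1, Vegfa and Ndrg1, which is 9 of 10 and 9 of 12. No share over all genes is given for calls made in both comparisons. These joint counts therefore only describe the members and cannot show more agreement than among genes at large. A further 10 genes were higher with ILA alone and not called in the presence of GSK805, namely Slc2a3, Hk1, Pfkl, Pfkm, Aldoa, Tpi1, Eno1, Ldha, Ldhb and Slc16a3. Of these, Slc2a3, Hk1, Pfkm, Aldoa and Ldhb did not pass the test of a difference between the 2 effects given below. Hk1 narrowly missed the call in the presence of GSK805 (log2 fold change 0.15, adjusted p = 0.0545). Bnip3 was higher in the first (0.30) and lower in the second (-0.34, adjusted p = 0.0191).

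In the presence of GSK805, Pfkfb4 was 2.08-fold higher (log2 fold change 1.06, SE 0.08, adjusted p = 1.9e-06) and Gpi1 1.40-fold higher (log2 fold change 0.48, SE 0.06, adjusted p = 4.8e-05). Ndrg1 was 1.88-fold lower (log2 fold change -0.91, SE 0.05, adjusted p = 3.8e-07), Pgk1 1.33-fold lower (log2 fold change -0.41, SE 0.04, adjusted p = 1.8e-05) and Pkm 1.24-fold lower (log2 fold change -0.31, SE 0.03, adjusted p = 1.5e-05). Ldha did not pass (log2 fold change -0.04, 95% confidence interval -0.13 to 0.05, adjusted p = 0.481), nor did Pfkl (log2 fold change 0.02, 95% confidence interval -0.09 to 0.13, adjusted p = 0.767). Median centring gave 4 higher and 15 lower among the 33, and over all genes a higher share of calls of 41.6% (55.7% as reported, 46.8% with quantile normalization). Of the 18 calls, 5 were lost under some alternative. The Bnip3 call of GSK805+ILA against GSK805 was lost with no filter (0.0525), without GSK805 replicate 1 (0.0752), GSK805+ILA replicate 1 (0.0705) or GSK805+ILA replicate 3 (0.0642); its range over all alternatives was 0.00539 to 0.0752. That of Ankrd37 was lost with quantile normalization (0.0583), median centring (0.0728), no filter (0.0634), by voom on recovered reads (0.0661), without GSK805 replicate 1 (0.0846), GSK805 replicate 3 (0.0848), GSK805+ILA replicate 2 (0.0692) or GSK805+ILA replicate 3 (0.0815); its range over all alternatives was 0.0118 to 0.0848. That of Bnip3l was lost with no filter (0.052), without GSK805 replicate 1 (0.068) or GSK805+ILA replicate 3 (0.0711); its range over all alternatives was 0.000924 to 0.0711. That of Gapdh was lost with no filter (0.0786), without GSK805 replicate 1 (0.0861), GSK805 replicate 2 (0.103), GSK805+ILA replicate 1 (0.0829) or GSK805+ILA replicate 3 (0.0885); its range over all alternatives was 0.00278 to 0.103. That of Pfkfb3 was lost with quantile normalization (0.128), median centring (0.105), no filter (0.0714), the compared groups alone (0.0588), without GSK805 replicate 1 (0.0749), GSK805 replicate 2 (0.0535), GSK805 replicate 3 (0.0808), GSK805+ILA replicate 1 (0.121) or GSK805+ILA replicate 2 (0.0697); its range over all alternatives was 0.00944 to 0.128.

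The difference between these 2 ILA effects was tested as an interaction term, the effect of ILA with GSK805 minus that without it. It passed for 12 of the 33 genes (36.4%), 2 positive and 10 negative, against 13.8% of all genes (5.15% positive and 8.70% negative). With the filter at 5 FPKM it passed for 1917 of 8768 genes, a larger share, and again for 2 positive and 10 negative members. Negative were Gpi1, Pfkl, Pfkfb3, Pfkfb4, Tpi1, Pgam1, Eno1, Ldha, Slc16a3 and Bnip3, so that 4 of 12 genes of the upper steps and 5 of 10 of the later steps were among them. For Pfkl the interaction was -0.34 (SE 0.07, adjusted p = 0.0111), for Eno1 -0.30 (adjusted p = 0.00726), for Ldha -0.35 (adjusted p = 0.00396) and for Bnip3 -0.65 (adjusted p = 0.0149). The positive ones were Ndrg1 at 0.60 (adjusted p = 0.00121) and Higd1a at 0.45 (adjusted p = 0.0243), both of which fell with ILA alone. The interaction was kept under all 20 alternatives that could be run for it by Pfkl, Eno1, Ldha, Bnip3 and Ndrg1, and the other 7 calls were lost under some of them. The counts were 1 positive and 4 negative without ILA replicate 2, without vehicle replicate 3 or without GSK805 replicate 1, and 1 and 5 without GSK805 replicate 2. Negative interactions numbered 6 without vehicle replicate 1, ILA replicate 1, ILA replicate 3, GSK805+ILA replicate 1 or GSK805+ILA replicate 3, the last with 1 positive. Median centring gave 5 positive and 4 negative among the 33 and a positive share of all calls of 63.2% (37.2% as reported, 46.0% with quantile normalization).

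**Figure D4:**
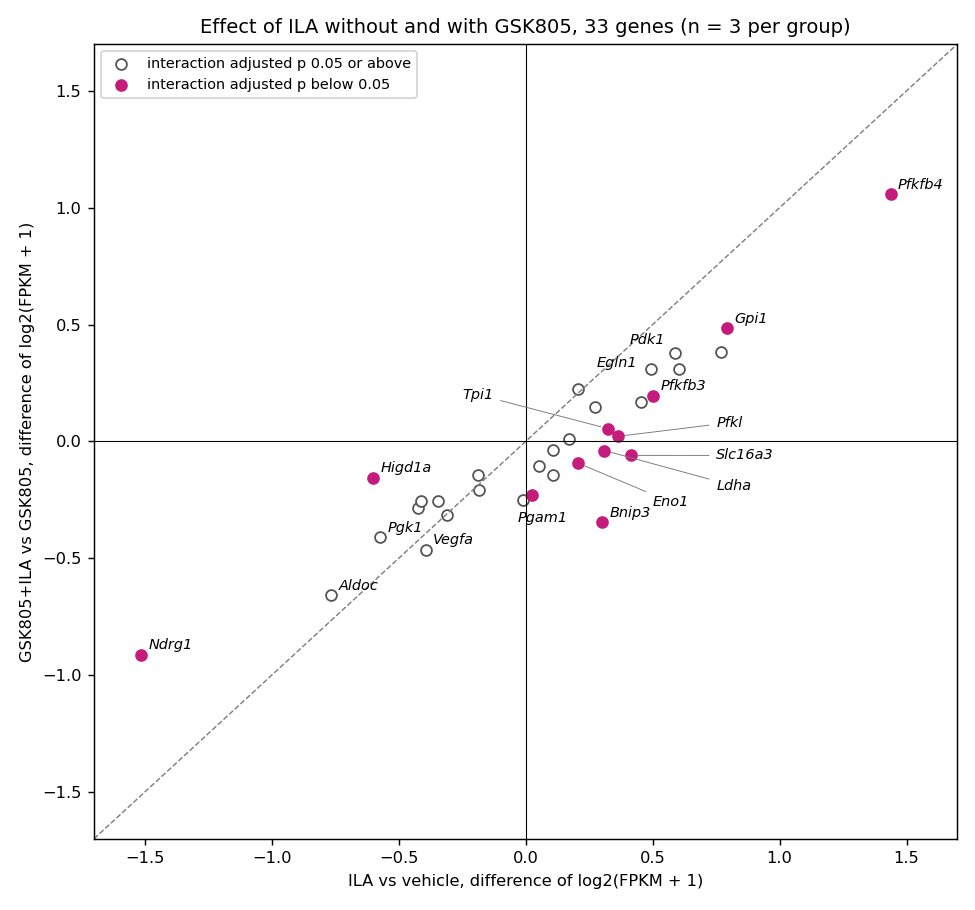
Log2 fold change of each of the 33 genes with ILA against vehicle (x axis) and with GSK805+ILA against GSK805 (y axis), with a dashed line where both effects are equal and filled points where the interaction passed. Ldha, Pfkl, Eno1 and Bnip3 lie below the line to the right of 0, and Ndrg1 lies above it at the lower left.

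The effect of GSK805 in the presence of ILA, GSK805+ILA against ILA, was a decrease for most of the genes. It called 1 gene higher and 19 lower (60.6%), against 18.6% of all genes (9.92% higher and 8.64% lower), with a median of -0.26, against 0.02 over all genes. With the filter at 5 FPKM this comparison called 2250 of 8768 genes, and 1 member higher and 19 lower. By role, 6 of 12 genes of the upper steps, 7 of 10 of the later steps and 6 of 11 hypoxia targets were lower. On the log2(FPKM + 1) scale the largest decreases were in Slc16a3, 1.58-fold lower (log2 fold change -0.66, SE 0.10, adjusted p = 0.00128), and Bnip3, 1.55-fold lower (log2 fold change -0.63, SE 0.10, adjusted p = 0.00199). Ldha (log2 fold change -0.39, SE 0.04, adjusted p = 0.00015), Tpi1 (log2 fold change -0.44, SE 0.05, adjusted p = 0.00017) and Eno1 (log2 fold change -0.37, SE 0.04, adjusted p = 0.00018) were lower too. So were Slc2a3 (log2 fold change -0.48, SE 0.08, adjusted p = 0.00273) and Gpi1 (log2 fold change -0.35, SE 0.06, adjusted p = 0.00187). Ndrg1 was the gene that was higher (log2 fold change 0.48, SE 0.05, adjusted p = 0.00021).

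With GSK805 alone, against vehicle, 6 genes were lower as they were in the presence of ILA, namely Aldoc, Tpi1, Gapdh, Pgk1, Vegfa and Mxi1, which is 6 of the 8 lower with GSK805 alone and 6 of the 19 lower in the presence of ILA. Here too the joint counts stand without a share over all genes and only describe the members. Groups did not overlap for 23 genes (37.2% of all genes) in GSK805+ILA against ILA and for 22 (52.1%) in GSK805+ILA against GSK805. Without ILA replicate 2 the first comparison called 1 higher and 15 lower. Calls of GSK805+ILA against ILA that some alternative ended were those of Aldoc, Bnip3l, P4ha1, Pfkfb4 and Pgk1. The Pfkfb4 decrease (log2 fold change -0.30, SE 0.08, adjusted p = 0.0205) was lost with no filter (0.0524), without ILA replicate 1 (0.0629), ILA replicate 2 (0.056), GSK805+ILA replicate 2 (0.0523) or GSK805+ILA replicate 3 (0.0731); its range over all alternatives was 0.000687 to 0.0731. For Pgk1 (log2 fold change -0.16, SE 0.04, adjusted p = 0.0213) it was lost without ILA replicate 3 (0.0723), GSK805+ILA replicate 2 (0.0702) or GSK805+ILA replicate 3 (0.0535); its range over all alternatives was 0.00262 to 0.0723. For Aldoc (log2 fold change -0.52, SE 0.15, adjusted p = 0.0312) it was lost with no filter (0.0829), the replicate block (0.0515), without ILA replicate 1 (0.103), ILA replicate 2 (0.101), GSK805+ILA replicate 1 (0.0802), GSK805+ILA replicate 2 (0.0891) or GSK805+ILA replicate 3 (0.0525); its range over all alternatives was 0.00592 to 0.103. For P4ha1 (log2 fold change -0.23, SE 0.06, adjusted p = 0.0211) it was lost with no filter (0.056), without ILA replicate 2 (0.0643), ILA replicate 3 (0.0682), GSK805+ILA replicate 2 (0.0558) or GSK805+ILA replicate 3 (0.0731); its range over all alternatives was 0.00245 to 0.0731. For Bnip3l (log2 fold change -0.23, SE 0.07, adjusted p = 0.0474) it was lost with neither trend nor robust moderation (0.0666), no filter (0.118), the compared groups alone (0.0507) or without any 1 of the 12 libraries except ILA replicate 3, GSK805 replicate 1 and GSK805 replicate 3 (0.0518 to 0.157); its range over all alternatives was 0.00434 to 0.157.

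Other genes of the pathways were read from lists, against the shares of all genes given above. Of 9 tested HIF subunits and oxygen sensors, 3 were higher and 4 lower with ILA, 1 and 1 with GSK805, and 2 and 3 with GSK805+ILA. Hif1a, the oxygen-regulated HIF-1 subunit, averaged 105 ± 1.09 FPKM with ILA, 70.0 ± 0.941 with GSK805, 73.2 ± 3.03 with GSK805+ILA and 84.9 ± 4.43 with vehicle (SD, n = 3 each). ILA libraries were the highest, and the 2 groups given GSK805 lay below vehicle. Its log2 fold changes were 0.30 with ILA (adjusted p = 8.3e-05), -0.27 with GSK805 (adjusted p = 0.00099) and -0.21 with GSK805+ILA (adjusted p = 0.00139). The Hif1a interaction was -0.24 (adjusted p = 0.0236). Arnt, its partner, was higher with ILA (log2 fold change 0.44, SE 0.05, adjusted p = 2.9e-05) and GSK805+ILA (log2 fold change 0.39, SE 0.05, adjusted p = 8.3e-05). Eloc and Cul2, of the ubiquitin ligase that removes HIF-1α, were lower with ILA (-0.47, adjusted p = 7.9e-05, and -0.25, adjusted p = 0.00231). The rest of the list went both ways. Mean FPKM with ILA and vehicle were 26.2 and 22.34 for Egln2, and 11.99 and 11.27 for Vhl, whose groups overlapped. Means were lower with ILA for Hif1an (16.47 and 18.07), Rbx1 (11.76 and 13.84) and Elob (55.79 and 61.86), the last with overlap.

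Of 14 other glycolytic enzymes and side enzymes tested, 6 were higher and 2 lower with ILA, 4 and 0 with GSK805, and 8 and 2 with GSK805+ILA. Eno2, the neuronal enolase, averaged 7.86 ± 1.38 FPKM with ILA, 5.31 ± 0.0772 with GSK805, 8.80 ± 0.712 with GSK805+ILA and 2.79 ± 0.242 with vehicle (SD, n = 3 each) and was higher with ILA (log2 fold change 1.22, SE 0.10, adjusted p = 1.2e-06), GSK805 (log2 fold change 0.74, SE 0.10, adjusted p = 0.00049) and GSK805+ILA (log2 fold change 1.37, SE 0.10, adjusted p = 6.2e-07). Slc2a8, a glucose transporter of internal membranes, was higher with ILA (log2 fold change 1.08, SE 0.12, adjusted p = 1e-05), and Adpgk, the ADP-dependent glucokinase, was lower (log2 fold change -0.93, SE 0.06, adjusted p = 1.8e-07). Gpd1l, related to glycerol 3-phosphate dehydrogenase, was higher with ILA (0.71, adjusted p = 3.7e-06) and GSK805 (0.57, adjusted p = 0.00021).

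Of 8 pentose phosphate enzymes, 4 were higher and 2 lower with ILA, 3 and 1 with GSK805, and 5 and 1 with GSK805+ILA. H6pd was higher with ILA (0.94, adjusted p = 4.6e-06), as was Taldo1 (0.56, adjusted p = 0.00023), and G6pdx, which starts the pathway in the cytosol, was lower (-0.34, adjusted p = 0.00073). Of 12 genes of pyruvate entry into mitochondria, 1 was higher and 5 lower with ILA, 1 and 2 with GSK805, and 2 and 3 with GSK805+ILA. Dld, a subunit of pyruvate dehydrogenase and related complexes, was lower with ILA (-0.50, adjusted p = 2.9e-06), and Dlat was higher (0.25, adjusted p = 0.00126).

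Of 28 other genes known to rise in hypoxia, 6 were higher and 11 lower with ILA, 2 and 11 with GSK805, and 8 and 15 with GSK805+ILA, so that more were lower than higher in each comparison. The lipoprotein receptor gene Vldlr was lower with ILA (log2 fold change -1.21, SE 0.12, adjusted p = 5.4e-06). Angptl4, an inhibitor of lipoprotein lipase, was higher with ILA (log2 fold change 1.58, SE 0.10, adjusted p = 1.8e-07). Of 11 regulators of glycolysis, which promote or restrain it, 3 were higher and 6 lower with ILA, 2 and 2 with GSK805, and 3 and 5 with GSK805+ILA. Txnip and Arrdc4, arrestins that restrain glucose uptake, were lower with ILA (-1.07, adjusted p = 4.7e-08, and -1.49, adjusted p = 1.2e-06) and GSK805 (-0.35, adjusted p = 0.00155, and -0.79, adjusted p = 0.00103). The transcription factor Irf4 was lower with ILA (log2 fold change -0.80, SE 0.05, adjusted p = 1.4e-07), and so was Max, the partner of MYC (log2 fold change -0.43, SE 0.04, adjusted p = 9.3e-06). The 3 regulators higher with ILA were Akt1, Mlx and Rptor. Their means with ILA and vehicle were 62.7 and 46.7 FPKM, 23.6 and 20.6, and 7.56 and 6.74.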

How the data were processed

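RNA-seq of 12 cultures was analysed from the FPKM values the authors deposited per gene, 1 table per library. The submitters' processing notes list FastQC 0.11.2, Bowtie and the build mm10. The Bowtie version, the counter, the annotation and any use of strand are not stated there.

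Genes whose mean reached 1 FPKM in at least 1 group were tested as log2(FPKM + 1) with limma 3.58.1 in R 4.3.3 (trend and robust moderation by statmod 1.5.0), 1 fit over all 4 groups, with Benjamini-Hochberg adjustment over 13511 genes and a threshold of 0.05. The interaction was a contrast of the same fit. Whole reads were recovered from FPKM steps and gene lengths, with 98.1% to 98.7% of values within 0.1 of a whole read. Isoform ratios were compared by exact two-sided permutation tests. The fits were tested on simulated data.

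Alternatives were a pseudocount of 0.1, no filter, a filter of 5 FPKM, quantile normalization, median centring, plain limma, a replicate block, only the groups compared, each library left out, and voom on recovered reads, the last chosen after seeing the data. All members were described, and up to 4 called genes with the largest changes per other list and comparison could be named, not all of which are reported here. For the HIF subunits and oxygen sensors, means of the other tested genes with ILA and vehicle are given as well. The members and lists were chosen with earlier results of these data known. Copies were sought with BLAST 2.17.0 (at least 95% identity over at least 100 bases), and Python 3.11.15 served for tables and plots (pandas 2.3.3, numpy 2.4.6, matplotlib 3.10.9).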

Additional observations from a re-analysis of the deposited data

Results flagged for a closer look

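The change with ILA differed with and without GSK805, by the interaction test, for 12 genes. The difference, the log2 change with GSK805 minus that without it, was -0.31 for Gpi1, -0.34 for Pfkl, -0.31 for Pfkfb3, -0.38 for Pfkfb4 and -0.27 for Tpi1. It was -0.26 for Pgam1, -0.30 for Eno1, -0.35 for Ldha, -0.47 for Slc16a3 and -0.65 for Bnip3, and 0.45 for Higd1a and 0.60 for Ndrg1. For 7 of the 12, the call was lost under some alternatives. For Gpi1 (adjusted p = 0.0273) it was lost with median centring (0.084), no filter (0.0722) or without any 1 of the 12 libraries except ILA replicate 3, GSK805 replicate 3, GSK805+ILA replicate 2 and vehicle replicate 2 (0.0507 to 0.067); its range over all alternatives was 0.000604 to 0.084. For Tpi1 (adjusted p = 0.0223) it was lost with median centring (0.0848), no filter (0.0562), without vehicle replicate 3 (0.0511), ILA replicate 2 (0.0509), GSK805 replicate 1 (0.053) or GSK805 replicate 2 (0.0533); its range over all alternatives was 0.00309 to 0.0848. For Pgam1 (adjusted p = 0.0313) it was lost with neither trend nor robust moderation (0.056), median centring (0.103), no filter (0.0767) or without any 1 of the 12 libraries except ILA replicate 1, GSK805 replicate 3, GSK805+ILA replicate 3, vehicle replicate 1 and vehicle replicate 2 (0.0518 to 0.0729); its range over all alternatives was 0.00793 to 0.103. For Higd1a (adjusted p = 0.0243) it was lost with no filter (0.0675), without vehicle replicate 3 (0.0572), ILA replicate 2 (0.0573), GSK805 replicate 1 (0.0564), GSK805 replicate 2 (0.0572) or GSK805+ILA replicate 3 (0.0597); its range over all alternatives was 0.0047 to 0.0675. The Pfkfb3 difference (adjusted p = 0.0456) was lost with quantile normalization (0.122), median centring (0.103), no filter (0.106), the replicate block (0.051) or without any 1 of the 12 libraries except GSK805+ILA replicate 1 (0.0518 to 0.0995); its range over all alternatives was 0.00724 to 0.122. The Pfkfb4 difference (adjusted p = 0.0426) was lost with quantile normalization (0.0834), median centring (0.0969), no filter (0.103), a pseudocount of 0.1 (0.0581) or without any 1 of the 12 libraries except vehicle replicate 2 (0.0509 to 0.0953); its range over all alternatives was 0.00523 to 0.103. The Slc16a3 difference (adjusted p = 0.0469) was lost with neither trend nor robust moderation (0.0606), quantile normalization (0.0544), median centring (0.0871), no filter (0.122), a pseudocount of 0.1 (0.0505), the replicate block (0.0634) or without any 1 of the 12 libraries except GSK805 replicate 2 and GSK805+ILA replicate 2 (0.0609 to 0.102); its range over all alternatives was 0.00296 to 0.122.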

How the results depend on the processing

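Of the calls among the 33 genes, 21 of 27 with ILA, 5 of 10 with GSK805, 18 of 24 with GSK805+ILA, 13 of 18 in GSK805+ILA against GSK805, 15 of 20 in GSK805+ILA against ILA and 5 of 12 of the interaction held under every alternative. Some genes not called in the main fit were called under at least 1 alternative. These were 3 of 6 with ILA, 7 of 23 with GSK805 and 6 of 9 with GSK805+ILA. They were 5 of 15 in GSK805+ILA against GSK805, 2 of 13 in GSK805+ILA against ILA and 7 of 21 of the interaction. Among values called as reported or under the alternative, the direction changed for Aldoa with ILA (-0.029 with median centring) and for Pkm with GSK805 (0.14 with quantile normalization, adjusted p = 0.00647, range over alternatives 0.00647 to 1). Signs also turned among values called in neither, most often with median centring. The cause was not tested. The 2 genes called higher with GSK805 became 1 with neither trend nor robust moderation, with quantile normalization or with the replicate block, and 0 with median centring, no filter or only the groups compared. Those lower with GSK805 became 13 with median centring. Genes higher with GSK805+ILA became 5 with median centring. Interactions became 5 positive and 4 negative with median centring and 1 and 4 with no filter. The Aldoa to Aldoc log2 ratio difference with GSK805+ILA was 1.18 from log2(FPKM + 1). With 1 library left out, higher and lower counts ran from 15 to 18 and 9 to 11 with ILA, 0 to 2 and 6 to 10 with GSK805, 6 to 8 and 14 to 19 with GSK805+ILA, 4 to 7 and 9 to 13 in GSK805+ILA against GSK805, 1 to 2 and 14 to 19 in GSK805+ILA against ILA, and 1 to 3 and 4 to 10 for the interaction. Deviations of same-numbered replicates correlated weakly (-0.08 to 0.08 over 18 pairs), and those of differently numbered ones ran from -0.06 to 0.08. Between GSK805 and ILA, same-numbered replicates correlated at 0.053, 0.050 and 0.078, and differently numbered ones at -0.041 to -0.013. The replicate block gave 17 higher and 10 lower with ILA, 1 and 8 with GSK805, and 7 and 17 with GSK805+ILA. Depth limits Pfkm, Ldhb and Aldoc most, since they have the fewest reads of the 33.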
